A study of Mus musculus with 10 samples.

Results

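The miR-379/410 cluster is the block of miRNA hairpins on the Mirg side of the imprinted Dlk1-Dio3 domain. Its members were taken as every GENCODE vM21 miRNA gene with a symbol starting Mir on the plus strand in the Mirg side of the domain, from Mir379 to the last hairpin before the end of Mirg (chr12:109709060-109747960, GRCm38), which gave 38 hairpin genes of the 1174 miRNA hairpins used. The cluster was chosen by its summed read level over the groups of these same libraries. Of these, 24 lie upstream of the annotated Mirg gene and the other 14 lie within its span, 4 inside an exon, 5 partly in an exon and 5 in an intron. Reads were found for 35 hairpins and 67 mature arms, and none for Mir654, Mir544 and Mir453.

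Libraries of small RNA were made from sorted cells of Day 6 embryoid bodies, grown from 3 male mouse embryonic stem cell lines. mPGCLCs are cells of these bodies with a primordial germ cell-like state, and non-PGCLC cells are the surrounding cells of the bodies. E14 (129/Ola, no reporter) and BG5 (C57BL/6J/DBA/129 mixed strain, Blimp1-GFP reporter) gave both mPGCLCs and non-PGCLC cells, while only non-PGCLC cells of SGET (B6CBA/129 mixed strain, with Stella-GFP and Esg1-tdTomato) are used. Each of the 5 groups has 2 replicates. All groups share the same induction with cytokines, and each line and its strain background change together, so line and strain cannot be told apart. The labels give sorting on Stella-GFP and Esg1-tdTomato for all lines, whereas the methods of the study name Ssea1 with Cd61 for E14 and Ssea1 with Blimp1-GFP for BG5, so the gate may differ between lines. The mPGCLCs of SGET were not analysed here.

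In mouse, the miRNAs of this cluster are made from a long noncoding transcript of the maternally inherited chromosome, together with Meg3 and the antisense of Rtl1. Each hairpin can give an arm from its 5′ side (5p) and an arm from its 3′ side (3p), and the bases 2 to 8 of an arm, the seed, guide it to its targets. The cluster is best known from brain and placenta, and silencing of the domain is a known mark of some pluripotent stem cell clones.

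The sequences that carry the results are the 10 most abundant arms, the arms that ran against the cluster, and arms that share their seeds. They are RefSeq mature sequences (GRCm38.p6), which were listed for 64 of the 67 arms, written 5′ to 3′ with the seed in capitals. The most abundant arms were these.
Mir541-5p: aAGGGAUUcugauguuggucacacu
Mir409-3p: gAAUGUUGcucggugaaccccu
Mir382-5p: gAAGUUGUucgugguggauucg
Mir543-3p: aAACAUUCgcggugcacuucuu
Mir485-3p: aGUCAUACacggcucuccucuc
Mir323-3p: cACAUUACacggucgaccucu
Mir369-3p: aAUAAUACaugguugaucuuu
Mir134-5p: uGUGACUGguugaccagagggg
Mir495-3p: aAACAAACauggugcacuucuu

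Mir379-5p, also among the 10, shares the seed GGUAGAC with Mir1193-5p, and Mir379-3p shares AUGUAAC with Mir411-3p. In all, 5 seeds were held by 2 arms each, and no seed by more.
Mir379-5p: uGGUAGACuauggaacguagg
Mir1193-5p: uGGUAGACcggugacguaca
Mir379-3p: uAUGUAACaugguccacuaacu
Mir411-3p: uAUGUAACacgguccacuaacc

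The arms that ran against the cluster, and Mir412-3p, are shown for their contrast with the arms above. Mir758-5p shares its seed with Mir1197-5p.
Mir758-3p: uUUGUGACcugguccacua
Mir758-5p: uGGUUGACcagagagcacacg
Mir1197-5p: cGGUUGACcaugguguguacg
Mir666-5p: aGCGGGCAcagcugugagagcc
Mir369-5p: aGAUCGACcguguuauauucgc
Mir134-3p: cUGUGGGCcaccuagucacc
Mir496a-5p: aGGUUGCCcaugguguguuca
Mir412-3p: uUCACCUGguccacuagccg

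Some arms also share longer runs. The run GGUCCACUA, chosen after the sequences were seen and searched in the mature strand only, stands in Mir379-3p, Mir411-3p, Mir758-3p and Mir412-3p, 6.25% of the 64 arms, and in 0 of 1667 mature sequences of other mouse miRNA genes. The run GGUUGACC stands in 5 arms (Mir380-5p, Mir1197-5p, Mir758-5p, Mir134-5p and Mir154-3p) and in 0 of the 1667 others. It overlaps the seed in all of these but Mir154-3p.

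The 10 libraries held 7421061 to 14444567 reads each, of which 14.97% to 34.46% matched miRNA hairpins. The input was low and PCR copies stay in the counts. Among the 670 values of 67 arms in 10 libraries, 208 were 0, 15 were 1 to 9 reads and 447 were 10 or more, so few values lay between 0 and 10 reads. In the cluster, the median sequence with 10 or more reads had 57 copies in the library with the fewest and 391 in the second SGET library, in which 35 of the 67 arms were at 0. Intervals and detection limits below cover counting error only, and 3 reads correspond to 0.208 to 0.404 RPM, the reads of an arm scaled to 1000000 reads of the library. In these bulk samples, fewer cells of a type and less RNA per cell cannot be told apart.

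Summed over all arms, the cluster was lowest in E14 mPGCLCs and highest in BG5 non-PGCLC cells. Since these levels chose the cluster, they are given as a description with no test. The summed level was 3452 and 3239 RPM in the E14 mPGCLC libraries and 4989 and 5830 in E14 non-PGCLC cells. It was 18502 and 13365 RPM in BG5 mPGCLCs, 50351 and 30195 in BG5 non-PGCLC cells, and 7143 and 8728 in SGET non-PGCLC cells. The ranges of the 5 groups did not overlap. The order from low to high was E14 mPGCLC, E14 non-PGCLC, SGET non-PGCLC, BG5 mPGCLC and BG5 non-PGCLC.

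**Figure D1:**
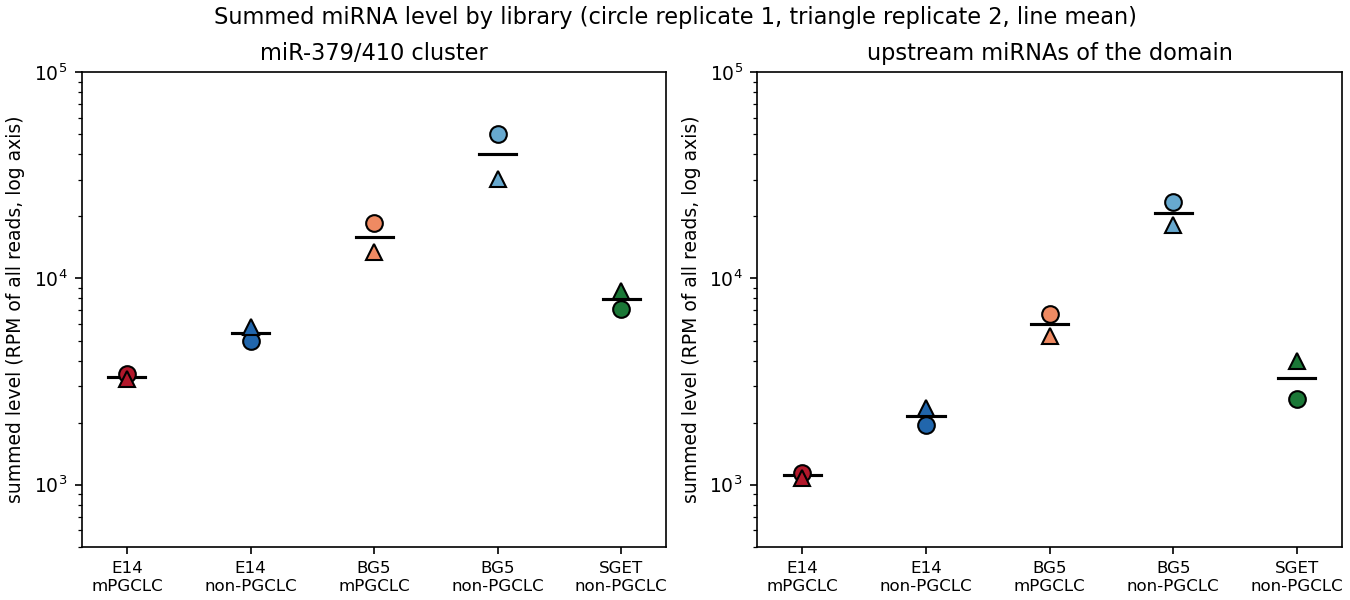
Summed level (RPM of all reads, log axis) of the miR-379/410 cluster and of the upstream miRNAs of the same domain in each library, by group, with circles for replicate 1, triangles for replicate 2 and a line at the mean. The cluster runs from 3239 RPM in an E14 mPGCLC library to 50351 in a BG5 non-PGCLC library, and the upstream miRNAs show the same order of the groups.

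Within a line the sum was lower in mPGCLCs, and BG5 exceeded E14 by more than the cell types of either line differed. The non-PGCLC mean was 1.62-fold the mPGCLC mean in E14, 5410 ± 595 against 3346 ± 150 RPM (SD, n = 2 each), and 2.53-fold in BG5, 40273 ± 14252 against 15934 ± 3632 RPM. BG5 exceeded E14 by 4.76-fold in mPGCLCs and by 7.44-fold in non-PGCLC cells, while SGET non-PGCLC cells exceeded those of E14 by 1.47-fold. As a percentage of miRNA reads, the cluster made up 1.002% and 1.03% in E14 mPGCLCs, 2.17% and 3.26% in E14 non-PGCLC cells, 8.52% and 8.93% in BG5 mPGCLCs, 15.5% and 14.005% in BG5 non-PGCLC cells, and 2.39% and 2.69% in SGET. On this scale SGET and E14 non-PGCLC cells overlapped, with means of 2.54% and 2.72%, so the order of these groups depends on the denominator.

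The miRNAs upstream of the cluster in the same domain, 19 hairpin genes inside chr12:109544541-109682273, were read as a comparison list. Their sum was 1142 and 1082 RPM in E14 mPGCLCs, 1951 and 2346 in E14 non-PGCLC cells, 6751 and 5258 in BG5 mPGCLCs, 23609 and 18085 in BG5 non-PGCLC cells, and 2609 and 3989 in SGET. Non-PGCLC means were 1.93-fold the mPGCLC means in E14 and 3.47-fold in BG5. The ratio of the cluster to this list was 3.02 and 2.99 in E14 mPGCLCs against 2.56 and 2.49 in E14 non-PGCLC cells. It was 2.74 and 2.54 in BG5 mPGCLCs against 2.13 and 1.67 in BG5 non-PGCLC cells, so that in both lines the ratio was higher in both mPGCLC libraries. In SGET it was 2.74 and 2.19.

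Marker miRNAs of other cell types also differed between the groups. The mesenchymal list (6 genes, all with reads, among them Mir199a, Mir214 and Mir143, known from fibroblast-like cells) summed to 589 and 683 RPM in E14 mPGCLCs, 593 and 305.9 in BG5 mPGCLCs, 1685 and 1816 in E14 non-PGCLC cells, 2226 and 1783 in SGET, and 28680 and 17982 in BG5 non-PGCLC cells. The pluripotent and germ cell-like list (12 of 14 genes with reads, the miR-290 and miR-302 clusters) summed to 55782 and 59972 RPM in E14 mPGCLCs, 36594 and 27071 in E14 non-PGCLC cells, 28862 and 22217 in BG5 mPGCLCs, 2808 and 3768 in BG5 non-PGCLC cells, and 43740 and 50867 in SGET. BG5 non-PGCLC cells, the group with most of the cluster, thus had the highest mesenchymal and the lowest pluripotent sums. BG5 mPGCLCs, the group with the second highest cluster sum, overlapped E14 mPGCLCs in their mesenchymal sum. Epithelial markers (5 of 5 genes with reads) were higher in mPGCLCs of both lines, with means of 1942 against 1123 RPM in E14 and 3754 against 1392 in BG5, and were at 2862 in SGET. As a percentage of miRNA reads the E14 groups overlapped, with means of 0.590% and 0.559%. Neural markers (8 of 9) had means of 219 against 224 RPM in E14 and 302 against 48.4 in BG5, and were at 156 and 0 RPM in the SGET libraries. As a percentage of miRNA reads the neural means in E14 were 0.0666% in mPGCLCs and 0.108% in non-PGCLC cells. The pluripotent and germ cell-like means in E14 were 17.6% and 15.5% on that scale. Blood and endothelial markers (3 of 5) had means of 111 against 33.9 RPM in E14 and 99.6 against 152 in BG5, and 177 in SGET. The part of these cell types in the level of the cluster was not tested.

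A few arms carried most of the cluster. The 5 most abundant arms of a library made up 54.8% to 62.5% of its cluster reads, and the 10 most abundant 75.6% to 81.7%. Only 23 arms had reads in all 10 libraries and 18 had reads in fewer than 5. The mean was highest in BG5 non-PGCLC cells for 55 of the 67 arms, in BG5 mPGCLCs for 9, in E14 non-PGCLC cells for 2 and in SGET for 1. These shares were not computed over all miRNA arms. Scaled to total reads only, the median log2 difference of BG5 from E14 non-PGCLC cells was 1.18 over 562 miRNA arms. It was 3.18 over 61 arms of the cluster.

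**Figure D2:**
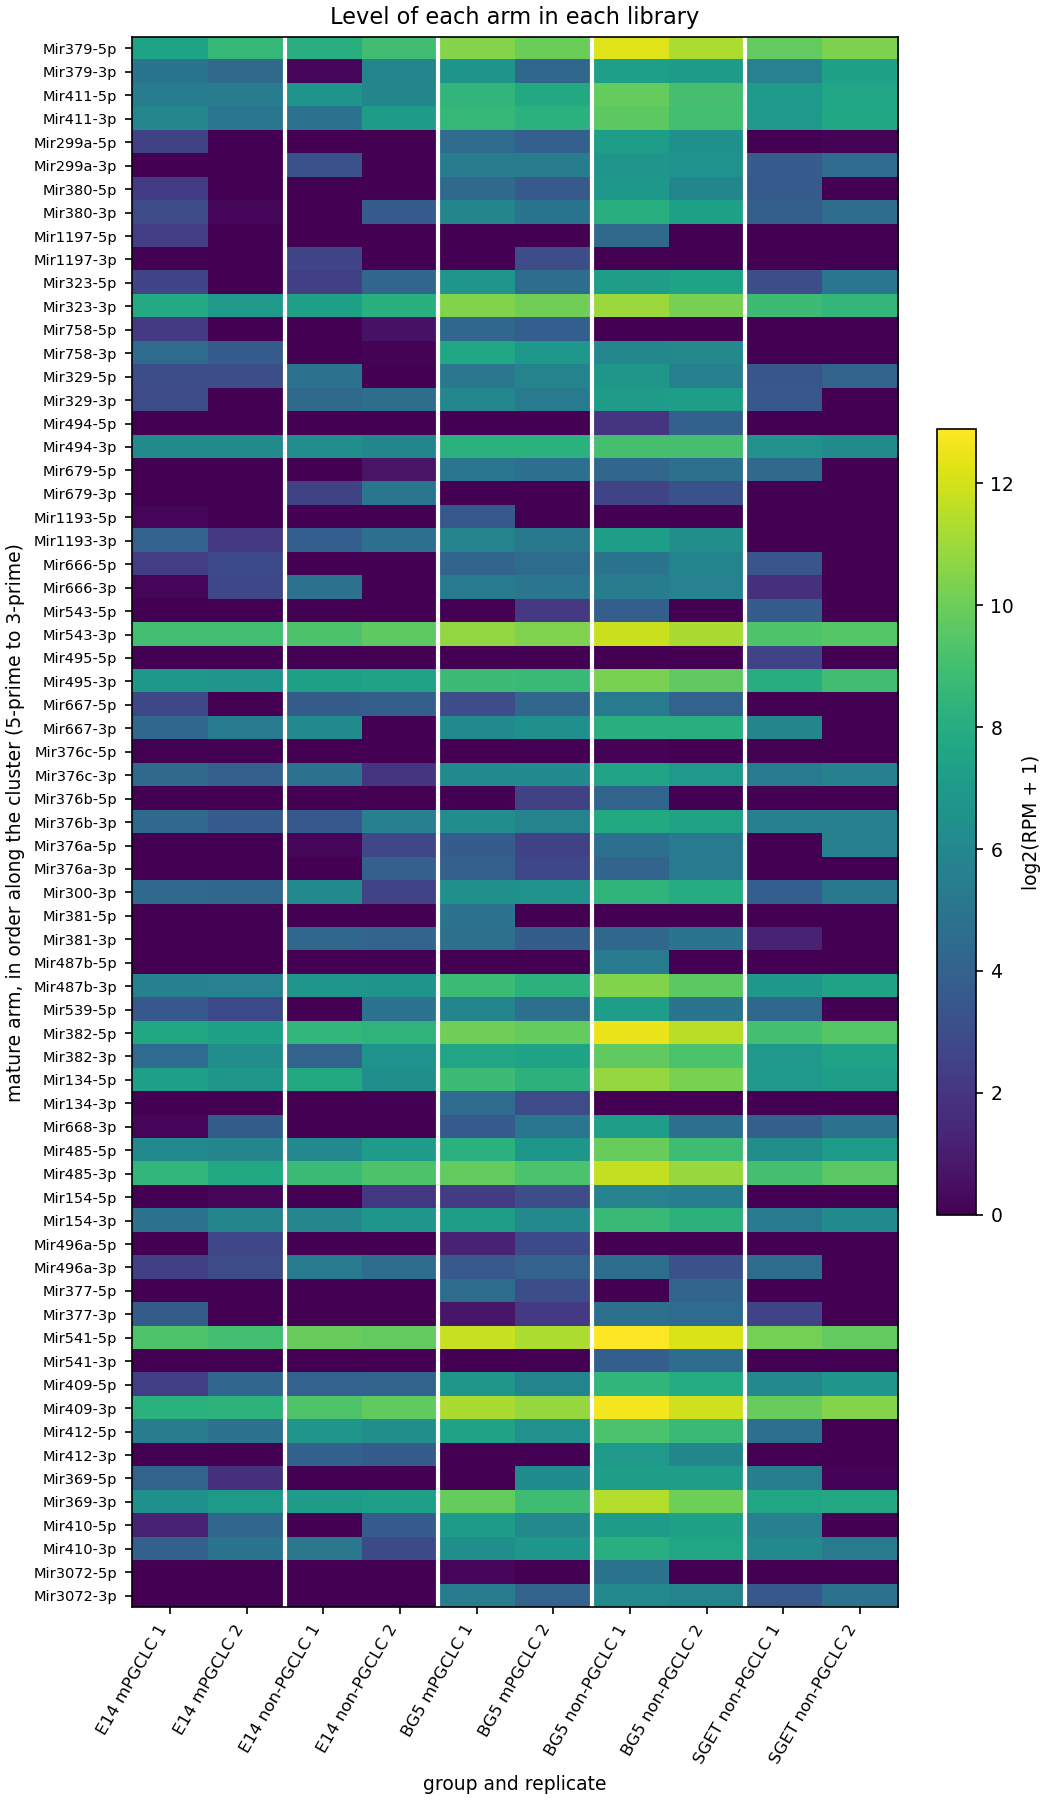
Level of each of the 67 arms (rows, in order along the cluster) in each of the 10 libraries (columns, by group and replicate), as log2(RPM + 1). Bright rows are the abundant arms such as Mir541-5p and Mir409-3p, and the BG5 non-PGCLC columns are brightest for 55 arms by group mean; dark cells are arms with few or no reads.

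Mir541-5p was the most abundant arm, with a mean of 2334 RPM over the 10 libraries. It was at 638 and 511 RPM in E14 mPGCLCs, 965 and 874 in E14 non-PGCLC cells, 3620 and 2525 in BG5 mPGCLCs, 7576 and 4556 in BG5 non-PGCLC cells, and 1184 and 889 in SGET. The groups of a line did not overlap, and E14 and SGET non-PGCLC cells overlapped.

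Mir409-3p, from a hairpin in a Mirg intron, followed with a mean of 1931 RPM. Its level was 303 and 321 RPM in E14 mPGCLCs against 654 and 849 in E14 non-PGCLC cells, and 2457 and 1831 in BG5 mPGCLCs against 6435 and 4036 in BG5 non-PGCLC cells. SGET non-PGCLC cells had 965 and 1462 RPM, above both E14 groups and below both BG5 groups.

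Mir379-5p, from the first hairpin of the cluster, was at 176 and 384 RPM in E14 mPGCLCs, 265 and 484 in E14 non-PGCLC cells, 1462 and 1000.5 in BG5 mPGCLCs, 4920 and 2520 in BG5 non-PGCLC cells, and 885 and 1294 in SGET. Its E14 groups overlapped, unlike its BG5 groups.

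Mir382-5p had the largest gap between the BG5 cell types among the 10 most abundant arms, with a log2 ratio of mPGCLC to non-PGCLC mean RPM of -2.10. It was at 208 and 164 RPM in E14 mPGCLCs, 365 and 335 in E14 non-PGCLC cells, 1110 and 932 in BG5 mPGCLCs, 5806 and 2979 in BG5 non-PGCLC cells, and 533 and 706 in SGET. Its groups did not overlap within either line.

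Mir134-5p, known as a regulator of dendritic spine size in neurons, showed -2.02 on the same scale in BG5 and -0.24 in E14. It was at 156 and 111 RPM in E14 mPGCLCs, 229 and 86.0 in E14 non-PGCLC cells, 450 and 307 in BG5 mPGCLCs, 1828 and 1253 in BG5 non-PGCLC cells, and 121 and 144 in SGET. The E14 groups overlapped, and the SGET level lay within the range of the E14 libraries.

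Mir323-3p was the abundant arm with the smallest gap in BG5. It was at 236 and 125 RPM in E14 mPGCLCs, 163 and 291 in E14 non-PGCLC cells, 1372 and 1076 in BG5 mPGCLCs, 1994 and 1215 in BG5 non-PGCLC cells, and 461 and 364 in SGET. The cell types overlapped in both lines. Its BG5 log2 ratio was -0.39 in RPM but 0.34 after the scaling of the edgeR fit, so its direction depends on the scaling.

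Mir369-3p, 1 of the miRNAs once used in reprogramming cocktails, was at 88.7 and 127 RPM in E14 mPGCLCs, 137 and 152 in E14 non-PGCLC cells, 908 and 473 in BG5 mPGCLCs, 2730 and 1056 in BG5 non-PGCLC cells, and 199 and 221 in SGET. In E14 and in BG5 alike, both mPGCLC libraries lay below both non-PGCLC libraries. The other 3 of the 10 most abundant arms, Mir543-3p, Mir485-3p and Mir495-3p, had log2 ratios of -0.51, -0.82 and -0.55 in E14 and of -1.002, -1.81 and -1.27 in BG5.

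An arm was counted along the cluster when both mPGCLC libraries lay below both non-PGCLC libraries, with at least 10 reads in both libraries of the higher group. This held for 18 arms in E14, where 39 arms met the read minimum in a group and 19.6% of 383 miRNA arms of the whole annotation were lower in this way. Without the first or the second E14 non-PGCLC library it held for 31 and 28 arms. It held for 43 arms in BG5, where 57 arms met the minimum and 49.5% of 396 arms were lower.

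An arm ran against the cluster when both mPGCLC libraries lay above both non-PGCLC libraries with the same minimum. There were 3 such arms in E14 and 4 in BG5, while 35.2% of the 383 arms in E14 and 24% of the 396 in BG5 were higher in this way. Mir758-3p was the only arm on both lists. The other arms were Mir666-5p and Mir369-5p in E14 and Mir758-5p, Mir134-3p and Mir496a-5p in BG5.

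Of these, Mir758-3p had 22.0 and 12.4 RPM in E14 mPGCLCs (182 and 100 reads) and 0 and 1 read in E14 non-PGCLC cells. In BG5 it had 209 and 115 RPM in mPGCLCs against 60.8 and 66.5 in non-PGCLC cells, a 2.55-fold higher mean, and in SGET it had no reads. Its reads consisted of few sequences, with 2 and 1 of 10 or more copies in the E14 mPGCLC libraries and 4 and 6 in those of BG5.

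The E14 contrast of Mir758-3p rests on the rule for matching reads. In the second E14 non-PGCLC library, 182 of 183 reads at position 4 of Mir758-3p carried the substitution G4T, counted from the 5′ end of the arm (99.5%, exact 95% binomial interval 97.0% to 99.99%). Reads with a change in the first 18 bases are not counted by the rule. In no other library with reads of the arm did G4T exceed 0.101%. With 1 mismatch allowed in the first 18 bases, an alternative chosen after seeing the data, the E14 non-PGCLC libraries had 0 and 183 reads (14.2 RPM) against 184 and 101 (22.2 and 12.6 RPM) in E14 mPGCLCs, and the groups overlapped. In BG5 the arm stayed higher in both mPGCLC libraries under that setting.

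Mir758-5p, the other arm of the same hairpin, was seen as 1 sequence in mPGCLCs, with 29 and 0 reads in E14 and 154 and 136 reads (18.7 and 13.3 RPM) in BG5. In non-PGCLC cells it had 0 and 7 reads in E14 and none in BG5 or SGET. Against the limit of 3 reads per library, its BG5 mPGCLC mean was at least 60.9-fold higher.

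The remaining arms against the cluster were low. Mir134-3p had reads in both BG5 mPGCLC libraries (21.3 and 6.94 RPM) and in no other library. Mir496a-5p had 5.72 RPM in the second E14 mPGCLC library and 1.33 and 6.55 RPM in BG5 mPGCLCs, and no reads elsewhere. Each was 1 sequence of 10 or more reads per library. Mir666-5p had 3.99 and 6.34 RPM in E14 mPGCLCs and none in E14 non-PGCLC cells, but in BG5 it was lower in mPGCLCs, 17.6 and 22.9 against 30.3 and 55.9 RPM. Mir369-5p had 16.2 and 2.61 RPM in E14 mPGCLCs and none in E14 non-PGCLC cells, and 0 and 75.3 against 150 and 146 RPM in BG5. When at least 2 different sequences of 10 or more reads were asked for in each library of the higher group, again a setting chosen after seeing the data, Mir758-3p in BG5 was the 1 arm left.

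**Figure D3:**
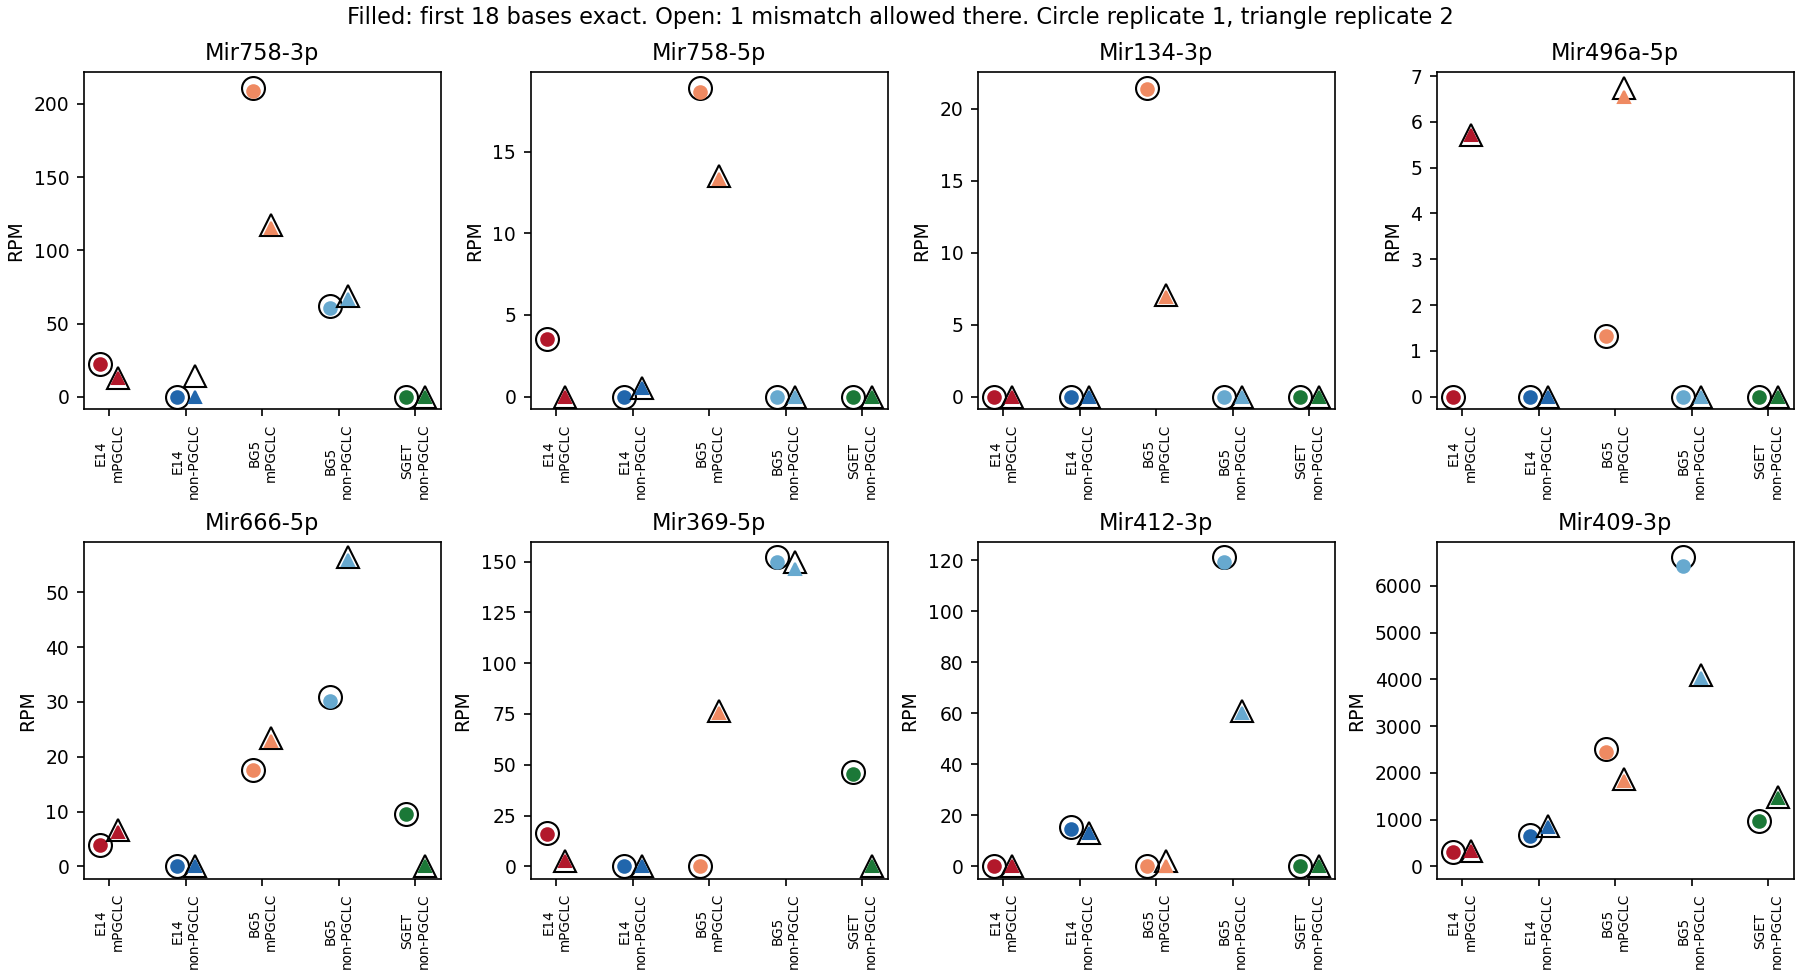
Level (RPM, linear axis from 0) of the 6 arms against the cluster, of Mir412-3p and, for comparison, of Mir409-3p in each library, by group, with circles for replicate 1 and triangles for replicate 2. Filled marks need the first 18 bases exact and open marks allow 1 mismatch there, which lifts Mir758-3p in the second E14 non-PGCLC library from near 0 to 14.2 RPM.

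Mir412-3p showed the opposite pattern. It had no reads in the 4 mPGCLC libraries and in SGET, 110 and 169 reads (14.8 and 13.1 RPM) in E14 non-PGCLC cells, and 1129 and 870 reads (119 and 60.2 RPM) in BG5 non-PGCLC cells. Against the limit of 3 reads per library, the mean of non-PGCLC cells exceeded that of mPGCLCs at least 38.0-fold in E14, and at least 273-fold in BG5. With 1 mismatch allowed, the second BG5 mPGCLC library had 23 reads and the other mPGCLC libraries had 0. These were 2.25 RPM, against 121 and 61.1 RPM in BG5 non-PGCLC cells, so the BG5 bound holds for exact matching only. None of its reads began at the start that RefSeq gives. Starts 4, 3 and 1 bases upstream held 38.7%, 35.9% and 25.4% of the reads, so that each start gives another seed. The start 3 bases upstream was seen in 4 libraries and the others in 2 each, and its most frequent read was this, in DNA letters with its seed in capitals.
Mir412-3p, most frequent read: tACTTCACctggtccactagc

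Counts were also compared with the quasi-likelihood test of edgeR over all 562 miRNA arms that passed its low-count filter, 61 of them in the cluster. Since the levels over these groups chose the cluster, the counts are printed beside the background and nothing is read from them. Over E14 and BG5 together, 14.6% of all arms passed an adjusted p of 0.05, and in the cluster 6 of 61 did, 1 higher in mPGCLCs (7.47% of all arms) and 5 lower (7.12%). In E14 alone 2 cluster arms passed (2.85% of all arms), 1 higher (0.534%) and 1 lower (2.31%). In BG5 alone 2 passed (13.9%), 0 higher (8.19%) and 2 lower (5.69%), by edgeR. The median log2 difference of the cluster was -0.76 over both lines, beside 0.15 for all arms, and 5 of 25 upstream arms were lower and none higher, with a median of -0.97. Without the TMM scaling, the median of all arms in BG5 was -0.72 in place of -0.03, and that of the cluster -1.42 in place of -0.77.

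The 5 arms counted as lower over both lines were Mir382-5p (fitted log2 difference -1.22, SE 0.21), Mir409-3p (-1.02, SE 0.19), Mir485-3p (-1.05, SE 0.25), Mir487b-3p (-1.01, SE 0.33) and Mir412-3p, and the 1 counted as higher was Mir758-3p. These differences describe the levels that chose the cluster, so no p is given for these arms. Mir412-3p entered the fit only through the non-PGCLC libraries, since it has no reads in mPGCLCs, and the E14 difference of Mir758-3p rests on mPGCLC libraries against 1 read, so their fitted values depend on the prior count. With 1 mismatch allowed in the first 18 bases, neither Mir758-3p, at a fitted log2 difference of 1.43, nor Mir412-3p, at -7.97, was among the arms counted. In that setting 6 of 61 cluster arms were counted, all lower, where 14.7% of all arms were called. Mir379-5p and Mir541-5p entered the count. Mir487b-3p dropped out of the count in 13 of 18 alternative settings and Mir412-3p in 8.

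The difference of the cell-type effect between BG5 and E14 was tested directly, and 0 of 61 cluster arms passed in edgeR, with 5.69% of all arms called, 3.91% higher and 1.78% lower in BG5. At an unadjusted p under 0.05 there were 5 of 61, beside 83 of all 562 arms, and with DESeq2 5 of 57 arms passed, beside 77 of 529. Between the non-PGCLC cells of E14, BG5 and SGET, 17 of 61 cluster arms passed by edgeR, all with BG5 above E14, where 18.9% of all arms were called. The levels of these groups chose the cluster, so this count too is a description.

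The choice of arm within a hairpin is a ratio of the arm counts whose levels are described above, and is not independent of them. It was tested as 5p reads over 5p plus 3p reads in the 4 mPGCLC and 4 non-PGCLC libraries of E14 and BG5, in 23 hairpins with at least 20 reads in all 8, by a two-sided exact permutation test whose smallest p is 0.0286. No hairpin passed after adjustment over the 23, where the smallest adjusted p was 0.657. Most hairpins gave mainly the same arm in every library. Mir541 and Mir134 were 99.5% to 100% and 95.5% to 100% 5p, whereas Mir495, Mir300, Mir376c and Mir543 were under 2% 5p in every library.

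Mir412 reached the smallest p of the exact permutation test, 0.0286 (adjusted p = 0.657). Its 5p share was 100% in the 4 mPGCLC libraries and 87.4%, 86.3%, 83.3% and 87.4% in the non-PGCLC libraries, a difference of 13.9 percentage points, because its 3p arm had no reads in mPGCLCs. The share thus restates the levels of Mir412-3p given above. The cell types of E14 and BG5 did not overlap, and the hairpin had 215 to 1435 reads in the mPGCLC libraries. The first SGET non-PGCLC library was also at 100%, of 366 reads, and the second had no reads of the hairpin.

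Mir496a held 5p reads only in mPGCLCs, with shares of 0%, 44.7%, 10.8% and 29.6% of 36 to 226 reads, and 0% in the 4 non-PGCLC libraries of 116 to 301 reads, where 0 reads allow up to 2.59% in the shallowest (exact permutation p = 0.143, adjusted p = 0.986). Mir411 stood out for giving both arms in near equal amounts, with a mean 5p share of 47.0% in mPGCLCs and 53.1% in non-PGCLC cells, and a range from 30.2% to 77.7% within E14 non-PGCLC cells. Mir410 varied from 0% to 65.8% between the E14 non-PGCLC libraries. The latter value rests on 158 5p and 82 3p reads, and with 1 mismatch allowed in the first 18 bases that library had 161 5p and 271 3p reads. Mir329 varied from 56.1% to 0% between the same libraries.

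**Figure D4:**
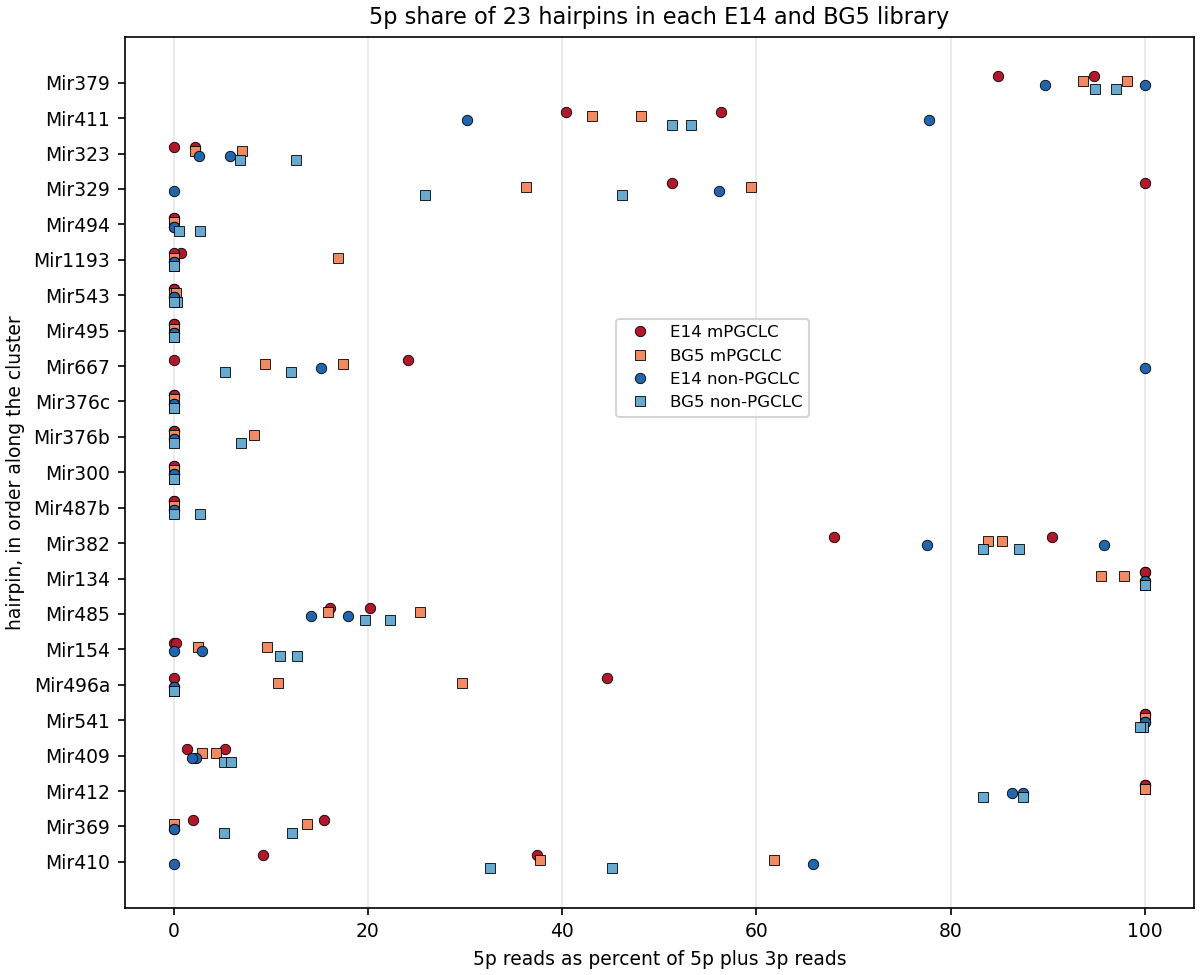
5p reads as percent of 5p plus 3p reads (x axis) for 23 hairpins (y axis, in order along the cluster) in each E14 library (circles) and BG5 library (squares), with mPGCLCs in red and orange and non-PGCLC cells in blue. Mir412 is at 100% in the 4 mPGCLC libraries and between 83.3% and 87.4% in the 4 non-PGCLC libraries, while most other hairpins overlap.

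The 5′ end of an arm sets its seed, and it was compared as the share of reads at the most frequent start in 21 arms with at least 50 reads in all 8 libraries. No arm passed the exact permutation test, with a smallest p of 0.0571 and a smallest adjusted p of 0.75. With a smallest possible p of 0.0286, no single arm or hairpin could pass after adjustment in either test of shares, so the tests do not show that shares were alike. Mir323-3p had the smallest p. Its main start held 43.9% and 53.3% of reads in E14 mPGCLCs and 79.9% and 82.8% in E14 non-PGCLC cells, but 59.7% and 55.1% in BG5 mPGCLCs against 65.9% and 57.8% in BG5 non-PGCLC cells. A second start 1 base upstream, which shifts the seed by 1 base, held 37.3% of all its reads.

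Mir411-5p showed a like pattern (exact permutation p = 0.0857, adjusted p = 0.75). Its main start held 41.2% and 13.4% of reads in E14 mPGCLCs and 74.0% and 82.3% in E14 non-PGCLC cells, and 70.04% and 60.9% against 68.8% and 67.9% in BG5. The start 1 base upstream held 28.8% of its reads over all libraries. Mir485-3p was the most mixed of the abundant arms, with 40.2% of reads at the start given by RefSeq, 32.5% 1 base and 20.8% 3 bases downstream, and each of these starts was seen in 10 libraries. Mir382-3p began 2 bases upstream of the RefSeq start in 93.9% of its reads.

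Substitutions within the first 18 bases were scanned in arms with at least 1000 reads. A-to-G changes, the form in which adenosine-to-inosine editing is read, made up 0.0537% of 7028403 covered bases, beside 0.132% for T-to-A, the most frequent type, and 0.00559% for A-to-T, the least frequent. Only 2 A-to-G sites reached 1% over all reads, A6G in Mir376c-3p and A15G in Mir299a-3p. All 132 reads with A15G came from the second BG5 non-PGCLC library, where it was in 8.49% of 1554 reads. Neither had 50 reads in all 8 libraries, so no site could be tested.

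The Mir376c hairpin belongs to a family known as a substrate of adenosine deaminases. A6G, in the seed of Mir376c-3p, was in 51 of 227 reads (22.5%, exact 95% interval 17.2% to 28.5%) in the first E14 mPGCLC library and 0 of 121 in the second, where up to 2.48% is allowed. It was in 0 of 588 and 70 of 847 reads (8.26%, 6.499% to 10.3%) in BG5 mPGCLCs, 96 of 1769 (5.43%, 4.42% to 6.59%) and 43 of 1817 (2.37%, 1.72% to 3.17%) in BG5 non-PGCLC cells, 0 of 202 and 0 of 40 in E14 non-PGCLC cells, and 1 of 601 and 1 of 496 in SGET. It was thus above 2% in 4 libraries of 3 groups, and the intervals of the replicates did not overlap in E14 mPGCLCs, BG5 mPGCLCs and BG5 non-PGCLC cells. All reads with the change were copies of 1 sequence.

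A site in the seed of Mir379-5p, A5G, stayed at 0.301% over all reads but reached 12.6% of 1975 reads in the first E14 non-PGCLC library and 1.06% of 12308 in the first BG5 mPGCLC library, with under 0.1% in each of the other 8. Substitutions other than A-to-G were also high in single libraries, with G2A in Mir496a-3p in 64 of the 64 reads that covered position 2 in the second BG5 mPGCLC library, where 159 reads of the arm matched exactly from a later base, and C10T in Mir410-3p in 68.6% of reads of the second E14 non-PGCLC library. In the other libraries C10T was seen in 1 read, in the first E14 non-PGCLC library, and G2A in none.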

How the data were processed

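The 10 deposited files hold raw counts: each lists the distinct read sequences of 1 library with their number of reads. Per the labels and the methods of the study, the authors trimmed reads (cutadapt 3.2), removed 4 random bases from each end, and mapped reads to GRCm38 with STAR 2.5.3a (versions also in the submitters' processing notes), allowing up to 2 mismatches. The random bases were not used to remove PCR copies, which can widen the spread between replicates.

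Reads of 18 to 26 nt were assigned to GENCODE vM21 hairpins in sense, with the first 18 bases exact and up to 2 later mismatches. Reads fitting several arms were left out, which touched no cluster read. RPM values are reads per 1000000 reads of a file. edgeR 4.0.16 (R 4.3.3) was fitted over all arms and 10 libraries with 5 group means, filterByExpr, TMM scaling and Benjamini-Hochberg adjustment (threshold 0.05). Exact permutation tests used scipy 1.17.1. The code was tested on simulated data. Replicates are labelled as biological duplicates.

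Named are the 10 most abundant arms, arms against the cluster, arms past the threshold over both lines, Mir412-3p and Mir758-3p, and the arms or hairpins singled out in the tests of shares, some of which were chosen after their values were seen. The members and lists were chosen with earlier results of these data known. Alternatives were DESeq2 1.42.0, other scalings, filters, denominators, matching and read lengths, each replicate left out, and a replicate block. Allowing 1 mismatch in the first 18 bases and asking for 2 sequences were added after seeing the data.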

Additional observations from a re-analysis of the deposited data

Results flagged for a closer look

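For 3 values, every E14 library moved one way and every BG5 library the other. Mir666-5p was higher in both E14 mPGCLC libraries and lower in both BG5 mPGCLC libraries than in the non-PGCLC libraries of the line. The edgeR adjusted p for its difference between the lines was 0.423. Mir369-5p moved in the same way, with an edgeR adjusted p of 0.230 for the difference. Both arms were picked for these opposite directions, and the edgeR fit used the same levels. Both also had 0 reads in each E14 non-PGCLC library. Their p values are therefore printed as a description, and nothing is read from them. The share of Mir487b-3p reads at the most frequent start was 100% and 100% in E14 mPGCLCs against 55.6% and 71.2% in E14 non-PGCLC cells, and 86.9% and 90.3% in BG5 mPGCLCs against 94.9% and 92.4% in BG5 non-PGCLC cells, so that the BG5 difference minus the E14 difference was -41.7 percentage points, which was not tested.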

How the results depend on the processing

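The summed cluster stayed lower in mPGCLCs of both lines in all settings run. With miRNA reads as denominator the log2 fold was -1.42 in E14 in place of -0.69 and -0.76 in BG5 in place of -1.34, so the order of the lines in the size of the gap turned. Leaving out 1 library gave -0.80 to -0.58 in E14 and -1.66 to -0.92 in BG5. The number of arms against the cluster, 6 over both lines, was 1 where 2 sequences were asked for in each library, and 7 to 13 with 1 library left out (10 without the second E14 or BG5 mPGCLC library, 13 and 12 without the first or second E14 non-PGCLC library). The share over all miRNA arms was not computed for these settings. DESeq2 called 20 cluster arms over both lines in place of 6, 13 in E14 and 6 in BG5 in place of 2 each, 5 in the difference between the lines in place of 0, and 26 between the non-PGCLC groups in place of 17, all with BG5 above E14. Its shares over all arms were higher too, at 25.3%, 11.3%, 24.2%, 14.6% and 33.1%. Total reads without TMM gave 1 arm in E14 (1.78% of all arms) and 5 in BG5 (12.3%), 1 allowed mismatch gave 1 in E14 (2.80%), whole reads exact gave 1 in BG5 (12.5%), and no low-count filter gave 1 for the difference between the lines (5.37%). With 1 library left out the counts were 4 to 8 over both lines, 1 to 5 in E14 (1 without the second BG5 mPGCLC library, 5 and 4 without the first or second BG5 non-PGCLC library, 4 without the first SGET library), 0 to 3 in BG5 (0 without the first BG5 mPGCLC or the first BG5 non-PGCLC library, 1 without the second BG5 mPGCLC library), 0 to 1 for the difference, and 14 to 26 between the non-PGCLC groups (26 without the first SGET library), while the shares of all arms were 10.6% to 15.6%, 1.99% to 4.90%, 9.89% to 14.5%, 4.73% to 7.95% and 16.2% to 22.6%. The log2 difference of Mir323-3p over both lines, -0.09, ran from -0.39 to 0.21 with 1 library left out, and turned to 0.13, 0.21 and 0.07 without the second E14 mPGCLC, second E14 non-PGCLC or first BG5 non-PGCLC library. That of Mir369-5p, 4.44, ran from -1.56 without the second BG5 mPGCLC library to 4.97. With the replicate block, edgeR called 6 cluster arms over both lines, 3 in E14, 2 in BG5, 0 for the difference and 20 between the non-PGCLC groups (15.7%, 4.80%, 15.5%, 7.47% and 22.6% of all arms), but same-numbered libraries did not deviate together (r = -0.055 in E14 and 0.030 in BG5 across 562 arms), so the libraries share only a number. No share of hairpins or starts passed in any setting, but with the smallest block p at 0.125 and the smallest p with 1 library left out at 0.0571, these settings could not pass and say nothing of stability. A-to-G sites gave no value in any setting because no site met the minimum of reads and share. The cause of these changes was not tested.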
